A study of Mus musculus with 13 samples.

Results

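Meis1 and Pbx3, genes for DNA-binding partners of the Hox proteins, were examined for H3K4me3, H3K27me3 and the NUP98-PHF23 fusion protein (NP23) in mouse leukaemia cell lines. Members were all peaks, in any of the 9 deposited lists, that overlapped by at least 1 bp a 160-kb window around Meis1 (mm9 chromosome 11, 18770000 to 18930000) or a 230-kb window around Pbx3 (mm9 chromosome 2, 34010000 to 34240000). In all, 19 of 109165 listed peaks were members, 9 at Meis1 and 10 at Pbx3. Both genes run toward lower coordinates. The start of transcription was taken near 18.919 Mb for Meis1 and near 34.23 Mb for Pbx3, positions given only to the last digit shown, so distances from the start are nominal.

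The series asks how these histone marks relate to where the fusion binds chromatin. Line 961C came from an acute myeloid leukaemia (AML) of an NP23 mouse, lines 748T and 106A came from precursor T-cell (pre-T LBL) disease of 2 other NP23 mice, and line 7298/2, called SCL-LMO1 below, came from SCL-LMO1 pre-T LBL and served as the control without the fusion. The 3 NP23 lines were C57BL/6 and the control was a C57BL/6 and C3H hybrid. Fusion, strain and the SCL-LMO1 origin of the control therefore cannot be told apart in that comparison. Where 961C is set against the pre-T lines, type of leukaemia and individual line cannot be told apart either, because 961C is the only AML line. All lines grew without cytokines in culture. Each line had 1 H3K4me3 and 1 H3K27me3 list, and 961C alone had an NP23 list, made with an antibody to the V5 tag. NP23 binding in the pre-T lines was not analysed here. With 1 list per line and antibody no difference between lines was tested, and the values are descriptions of single libraries.

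MEIS1 and PBX3 belong to the TALE class of homeodomain proteins, named for extra residues in a loop of the homeodomain. They bind DNA together with each other and with HOX proteins such as HOXA9, and sharpen which sites those proteins occupy. Meis1 is active in haematopoietic stem and progenitor cells and is turned down as they mature, and high MEIS1 with HOXA9 is a recurrent feature of AML with NUP98 or KMT2A fusions. PBX3 is known as a further partner of HOXA9 and MEIS1 in such leukaemias. H3K4me3 marks active or poised promoters, H3K27me3 is the repressive mark of Polycomb complexes, and the PHD finger of PHF23 binds H3K4me3.

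The lists held 16324 to 17696 H3K4me3 peaks, 4875 to 19469 H3K27me3 peaks and 1629 NP23 peaks. Heights are pileups of reads that were not scaled to depth, and total reads were not used here, so depth is unknown and heights were compared within a list. The median H3K4me3 peak had a mean height of 16.3 reads in 961C, 30.2 in 748T, 35.9 in 106A and 31.5 in SCL-LMO1.

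The Meis1 start carried a broad H3K4me3 domain in the AML line, bound by NP23 along most of its length. None of the 3 pre-T lines had a listed peak of either mark anywhere in the Meis1 window. The domain of 961C lay on chromosome 11 from 18906962 to 18920935, was 13974 bp long, and was the only H3K4me3 peak in the window. It reached 1.94 kb upstream of the nominal start and 12.04 kb into the gene, so 86.2% of it lay on the gene side. H3K4me3 covered 13974 bases of the window in 961C, against 0 bases in 748T, 106A and SCL-LMO1. In a fixed grid of 160-kb tiles along the genome, 37.7% of 16490 tiles held H3K4me3 in 961C, 35.2% in 748T, 33.7% in 106A and 36.9% in SCL-LMO1. A window without the mark is thus common in any line, and the grid includes stretches where no read can be placed. The gene is 139 kb long in the RefSeq table for GRCm38.p6, which also lists a long noncoding RNA, Gm16141, inside its first part. Reads from the marks cannot be assigned to either transcript.

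The promoter of Meis1 in RefSeq (GRCm38.p6, chr11:19018970-19019219, minus strand) is shown because the H3K4me3 domain lies over the start of transcription, with NP23 peaks on either side of it. It gives the 250 bases before the start, written 5′ to 3′, with CpG dinucleotides in capitals.
Meis1 promoter: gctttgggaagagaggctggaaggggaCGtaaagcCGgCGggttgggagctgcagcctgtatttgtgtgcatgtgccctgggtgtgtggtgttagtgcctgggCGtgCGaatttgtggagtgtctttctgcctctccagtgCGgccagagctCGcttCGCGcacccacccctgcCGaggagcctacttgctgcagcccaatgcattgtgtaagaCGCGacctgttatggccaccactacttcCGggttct
It holds 13 CpG dinucleotides, against a median of 6 over the same stretch of 32851 promoters, and 70.6% of those promoters hold as many or fewer. Its GC content was 59.6%, against a median of 52.4%. Of 4 motifs searched on both strands, only CCAAT was found, at base 197 of the sequence shown, and 33.8% of promoters hold it. The motif TGACAG, a MEIS recognition sequence, was not in these 250 bases and is in 15.9% of promoters. TGATTGAT, a PBX recognition sequence, was also not in them and is in 0.670% of promoters. GGGCGG, the core of an Sp1 site, was not in them either and is in 32.7% of promoters. The files are on mm9, so this sequence cannot be placed base by base on the peaks.

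In width the Meis1 domain ranked 7 of the 17696 H3K4me3 peaks of 961C, 13.5 times the median width. Its height was near the list median. The mean was 14.7 reads, 0.904 times the list median, and the maximum was 43 reads, against a median maximum of 38 reads. The second value in the files, read as a background track, averaged 0.208 reads over the domain, against a list median of 0.264. An overlap with NP23 is found in 4.96% of all 961C H3K4me3 peaks, an absence of H3K4me3 in the other 3 lines in 25.1%, and the combination seen at Meis1 in 3.46%. Of the 160-kb tiles, 2.08% held H3K4me3 and NP23 of 961C with no H3K4me3 of any other line.

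NP23 formed 7 peaks in the Meis1 window, and 6 of them lay in the H3K4me3 domain. In the whole NP23 list 72.0% of peaks overlap 961C H3K4me3. The 6 peaks covered 10972 bases, 78.5% of the domain. Taken from the start into the gene, the first lay upstream of the nominal start, from 18919268 to 18920382, and had the lowest mean of the 7, 3.76 reads, with a maximum of 8. The next ran from 18917754 to 18918674 just inside the gene, with a mean of 4.32 reads and also a maximum of 8. By mean height, NP23 was thus lowest in the 2 peaks nearest the start.

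The tallest NP23 peak of Meis1 lay 1.54 to 3.71 kb into the gene, from 18915290 to 18917455, with a mean of 9.06 reads and a maximum of 29. Its neighbour from 18912628 to 18915104 had a mean of 8.47 reads and a maximum of 20. These were the only 2 of the 7 at or above the median mean height of the NP23 list, 8.07 reads. Farther in, a 376-bp peak from 18911544 to 18911919 averaged 6.10 reads with a maximum of 11. The widest NP23 peak followed, 3917 bp from 18907229 to 18911145, with a mean of 6.86 reads and a maximum of 13.

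The outermost NP23 peak, 133 bp from 18906353 to 18906485, lay 476 bp beyond the inner edge of the H3K4me3 domain and averaged 5.08 reads with a maximum of 7. The 5 gaps between the peaks inside the domain were 185 to 708 bp long. The gap from 18918675 to 18919267 took in the nominal start, and the H3K4me3 domain ran on across all 5. NP23 at Meis1 was therefore a wide series of peaks, low by mean height. Of the 7, 6 were wider than the list median of 164 bp, and 5 were lower than the median mean height. By maximum they ran from 7 to 29 reads, on both sides of the list median of 13. The tallest was at or above 90.4% of the list by maximum. The highest background-track mean among the 7 was 0.369 reads. The window held 0.430% of the peaks of the NP23 list and 1.38% of its bases. Of the 16490 tiles of 160 kb, 16 (0.0970%) held at least as many NP23 bases.

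**Figure D1:**
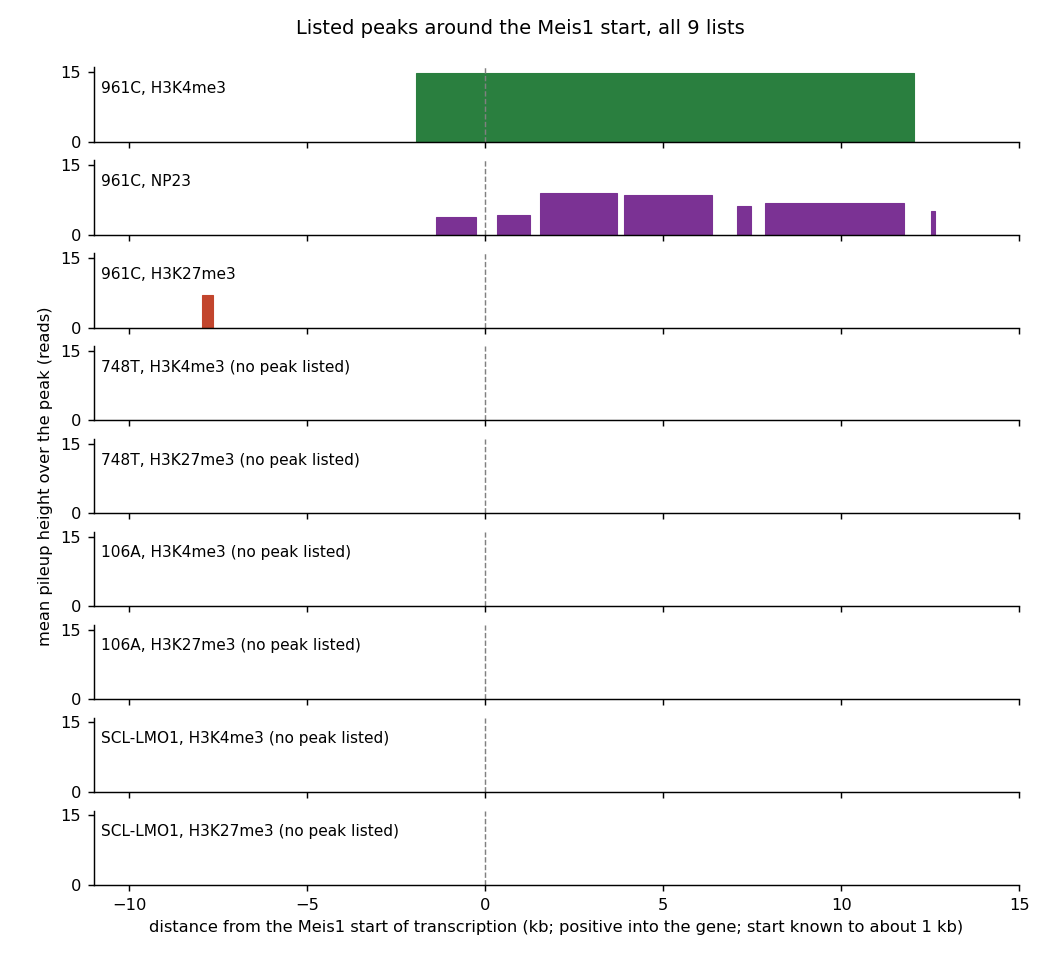
Peaks of all 9 lists around the Meis1 start; the x axis is the distance from the nominal start in kb, positive into the gene, bars span each peak, and bar height is the mean pileup in reads. Only 961C had peaks: H3K4me3 from 1.94 kb upstream to 12.04 kb inside the gene, 7 NP23 peaks, and 1 H3K27me3 peak beginning 7.65 kb upstream.

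H3K27me3 was listed at Meis1 only in the AML line, as a single short peak outside the H3K4me3 domain. It lay from 18926647 to 18926965, 319 bp long, 5711 bp beyond the upstream edge of the domain. Its mean was 6.99 reads and its maximum was 11, below the list medians of 8.01 and 12 reads. Of all 961C H3K4me3 peaks, 11.6% have an H3K27me3 peak of the line within 10 kb, and 2 of the 15 H3K4me3 peaks of 10 kb or more do (13.3%). The peak was among neither the taller 50% of its list nor the tallest 4875, the number in the shortest H3K27me3 list, and the difference between lines was then 0 bases. The 961C list holds 19469 H3K27me3 peaks, against 8412 in 748T, 5600 in 106A and 4875 in SCL-LMO1, and none of those 3 lists has a peak in the window. A window without a peak is the usual state in those lists, since 17.6%, 14.1% and 14.5% of 160-kb tiles hold one there. In 961C, 23.7% of tiles do. The pre-T lines thus had neither mark listed at Meis1.

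Meis1 lay in a long stretch poor in H3K4me3, and the peaks that frame it were found in all 4 lines. The nearest H3K4me3 peak of at least 500 bp beyond the window, on the upstream side, lay 900.4 kb from the start in 961C, 900.5 kb in 748T, 899.3 kb in 106A and 899.5 kb in SCL-LMO1. On the other side the nearest lay 1064 to 1065 kb away in each line. These framing peaks were 1.25 and 1.30 times the list median in mean height in 961C, 1.15 and 1.62 times in 748T, 0.929 and 1.21 times in 106A, and 1.47 and 1.41 times in SCL-LMO1, the side past the end of the gene first. The pre-T lists therefore hold H3K4me3 on either side of the stretch. As depth is unknown, the height that a domain like that of 961C would have in the other lists cannot be given.

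Among the 15 H3K4me3 domains of 961C of 10 kb or more, all with NP23, Meis1 was the lowest in mean pileup of both H3K4me3 and NP23. Its mean H3K4me3 height of 14.7 reads compared with 21.3 to 41.2 reads at the other 14, and its maximum of 43 reads with 70 to 109. NP23 averaged 7.10 reads over its peaks at Meis1, weighted by width, against 8.34 to 19.2 reads at the others. The share covered by NP23, 78.5%, ranked 11 of 15 and lay inside the range of 73.2% to 98.2%. Meis1 was also the only 1 of the 15 without H3K4me3 of any other line. Of the other 14, 12 had H3K4me3 of all 3 other lines and 2 had that of 748T and 106A but not of SCL-LMO1. These counts need only 1 bp of overlap. The covered share of these 14 domains ran from 7.42% to 80.1% in 748T and from 2.57% to 78.1% in 106A. In SCL-LMO1 it ran from 0% to 50.4%. The widest domain was covered by only 7.42% in 748T, 2.57% in 106A and 2.09% in SCL-LMO1, so most of its breadth was also listed in 961C alone. These ranks describe single libraries of 1 line and were not tested.

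**Figure D2:**
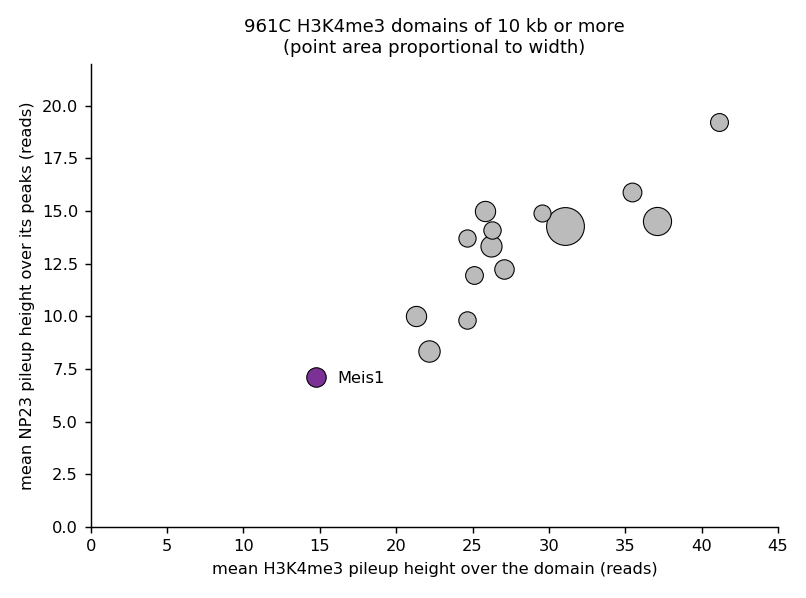
The 15 H3K4me3 domains of 961C that are 10 kb or wider; the x axis is the mean H3K4me3 pileup over the domain in reads, the y axis is the width-weighted mean pileup over its NP23 peaks in reads, and point area is proportional to width. Meis1, at 14.7 and 7.10 reads, is the lowest point on both axes.

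At Pbx3 the picture was different: H3K4me3 was listed at the promoter in all 4 lines, and neither NP23 nor H3K27me3 was listed anywhere in the window. Of the 10 H3K4me3 peaks, 6 lay within 10 kb of the nominal start and 4 lay deeper in the gene, which is 201 kb long in the GRCm38.p6 table. The 6 are called promoter peaks here. None overlapped the nominal start, which is known only to about 10 kb, and all lay 1.17 to 4.125 kb from it on the gene side. H3K4me3 covered 1412 bases of the window in 961C, 2017 in 748T, 1839 in 106A and 5266 in SCL-LMO1. The AML line minus the mean of the 2 NP23 pre-T lines was -516 bases. That difference changed sign, to 108 bases, when peaks within 1 kb were joined, to 403.5 bases when only peaks with a background-track mean of at most 1 read were kept, and to 409 bases with the taller 50% of each list, peaks at the median included. The mean of the NP23 pre-T lines minus SCL-LMO1 was -3338 bases, of which -782 lay within 10 kb of the start. It was -312.5 bases under the same limit on the background track. That limit removes all promoter peaks of 106A and SCL-LMO1, and the only SCL-LMO1 peak left is 1321 bp wide, inside the gene. The value therefore does not compare the promoter. The median background-track mean of the H3K4me3 lists was 0.264 reads in 961C, 0.197 in 748T, 1.46 in 106A and 1.07 in SCL-LMO1, so that limit removes more peaks from the lists of 106A and SCL-LMO1.

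**Figure D3:**
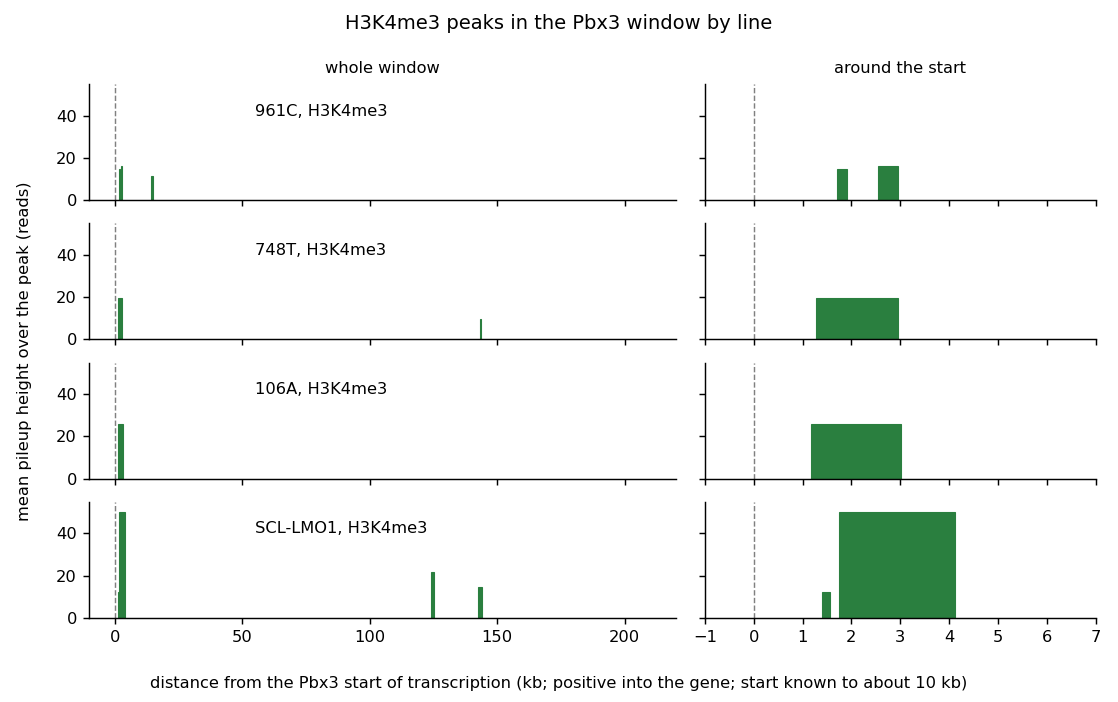
H3K4me3 peaks in the Pbx3 window by line, over the whole window (left) and around the start (right); the x axis is the distance from the nominal start in kb, positive into the gene, and bar height is the mean pileup over the peak in reads, not scaled to depth. The promoter peak is short and split in 961C and widest in SCL-LMO1, where 2 more peaks lie 124 to 144 kb into the gene.

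The promoter mark had the same place and different widths. In 961C it was split into peaks of 409 bp (34227054 to 34227462) and 203 bp (34228087 to 34228289), with means of 16.4 and 14.7 reads and maxima of 38 and 23. In 748T it was a single peak of 1673 bp, 34227046 to 34228718, with a mean of 19.8 reads and a maximum of 73. In 106A it was also a single peak, 1839 bp from 34226988 to 34228826, with a mean of 25.99 reads and a maximum of 88. The NP23 pre-T lines were thus nearly alike in extent, and 748T shared all its promoter bases with 106A.

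In SCL-LMO1 the Pbx3 promoter peak was 2383 bp wide, from 34225876 to 34228258, with a mean of 50.1 reads and a maximum of 107, and a 155-bp peak followed from 34228444 to 34228598. A stretch of 1112 bases, 34225876 to 34226987, was marked in SCL-LMO1 alone and lay on the gene side. The 4 lines had 581 promoter bases in common, and the 3 pre-T lines had 1368. All promoter bases of 961C lay within those of 748T and of 106A, and 94.9% lay within those of SCL-LMO1. As listed, the AML line therefore carried the narrowest version of the same promoter mark, 612 bases over a span of 1236 bp. The unknown depth limits this comparison of widths between lists.

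Within their own lists, the promoter peak of the control ranked higher than those of the NP23 lines in width and in mean height. The main SCL-LMO1 peak was at or above 89.9% of its list in width and 80.3% in mean height. The 748T and 106A peaks were at or above 76.8% and 75.6% in width but 34.9% and 36.4% in mean height. The wider 961C peak was at or above 23.8% in width and 50.4% in mean height. Overlap with H3K4me3 of all 3 other lines is common, at 62.0% of peaks in 961C, 61.5% in 748T, 66.6% in 106A and 60.1% in SCL-LMO1. It was met at Pbx3 by 2 of 3, 1 of 2, 1 of 1 and 1 of 4 peaks in those lines, all at the promoter.

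A check inside each library used the next H3K4me3 peak of at least 500 bp upstream of Pbx3, 32.1 to 32.4 kb from the nominal start, a choice made after seeing the data. In the GRCm38.p6 table the next protein-coding gene on that side is Mapkap1, which encodes a subunit of the TORC2 kinase complex. This upstream peak stood at 1.66 times the list median in mean height in 961C, 1.61 times in 748T, 1.61 times in 106A and 1.57 times in SCL-LMO1. Measured the same way, the Pbx3 promoter stood at 0.971 times in 961C, 0.654 times in 748T, 0.724 times in 106A and 1.51 times in SCL-LMO1. These means take listed bases only: 612 of a 1236-bp span in 961C, but all 1673 bp in 748T and 1839 bp in 106A. The 961C value therefore leaves out the gap between its peaks and is not measured over the same stretch as in the NP23 pre-T lines. The promoter reached 0.586, 0.407 and 0.451 of the upstream peak in the 3 NP23 lines, and 0.967 of it in SCL-LMO1. By maximum height the same ratios were 0.487, 0.503 and 0.629 in the NP23 lines and 0.899 in SCL-LMO1. The upstream peak was nearly level among the 4 lists by mean height only. By maximum it stood at 2.05 times the list median in 961C, 1.91 times in 748T, 1.44 times in 106A and 1.57 times in SCL-LMO1. The maximum at Pbx3 equalled the list median in 961C and stood at 0.961 times in 748T, 0.907 times in 106A and 1.41 times in SCL-LMO1. Set against its list median, H3K4me3 at Pbx3 was therefore higher in the control library than in any of the 3 NP23 libraries by either measure. The difference rests on 1 control library of SCL-LMO1 origin and another strain background, and was not tested.

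**Figure D4:**
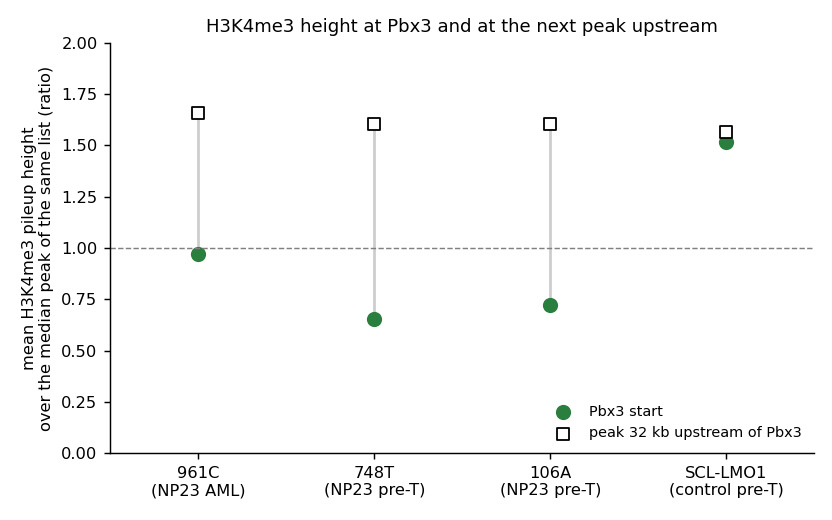
Mean H3K4me3 pileup over the Pbx3 promoter peaks (filled circles) and over the next peak upstream (open squares), each divided by the median peak of the same list; the x axis gives the 4 lines and the dashed line is the list median. The upstream peak stands at 1.57 to 1.66 in every line, and the Pbx3 promoter at 0.654 to 0.971 in the NP23 lines and 1.51 in SCL-LMO1.

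The H3K4me3 peaks inside Pbx3 were low and differed between lines. In 961C, a peak of 800 bp from 34215208 to 34216007, 14.0 kb into the gene, had a mean of 11.6 reads and met no peak of another line. In 748T, a peak of 344 bp from 34086502 to 34086845 averaged 9.82 reads. It lay within a 1407-bp peak of SCL-LMO1, 34086008 to 34087414, which averaged 14.5 reads. These sites lay about 143 kb into the gene. SCL-LMO1 alone had a further peak from 34104792 to 34106112, 1321 bp wide, with a mean of 21.9 reads. Line 106A had no H3K4me3 inside the gene apart from the promoter. Each of these 4 peaks was below its list median in mean height, at 0.325 to 0.710 times.

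NP23 was far from Pbx3. The nearest NP23 peak of 961C lay 753.0 kb from the nominal start, past the end of the gene, and the nearest on the upstream side lay 3047 kb away. None of the 3 H3K4me3 peaks of 961C at Pbx3 overlapped NP23, against 4.96% of the list, and 9.63% of 11468 tiles of 230 kb held an NP23 peak, so a window without NP23 is the usual state. The nearest H3K27me3 peak lay 250.8 kb from the start in 961C, 231.7 kb in 748T, 505.8 kb in 106A and 658.4 kb in SCL-LMO1. No H3K27me3 of any line is found in 56.1% of 230-kb tiles, and 34.6% hold H3K4me3 of all 4 lines. The full Pbx3 pattern, H3K4me3 in every line with no NP23 and no H3K27me3, is found in 7.87%. The 2 cofactor genes thus differed in the AML line: NP23 lay over 78.5% of the H3K4me3 bases at Meis1 and over 0% at Pbx3.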

How the data were processed

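The labels' protocols describe chromatin fixed in formaldehyde and sheared by sonication, with single-end sequencing of the precipitated DNA on GAIIx or MiSeq instruments. CASAVA 1.9, BWA 0.5.9-r26 and build mm9 are named, per the submitters' processing notes. How peaks were called is not stated in the sources used here. The 9 deposited lists, 1 per library, give start, end and a text field with mean and maximum pileup signal of the sample and of an unexplained second track, read as background from its low values. The 4 input samples were not used here.

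Groups follow the labels' cell type and antibody. The members and lists were chosen with earlier results of these data known. Every peak overlapping a window was described, no test was made, and shares of all peaks or of fixed tiles give the background. Alternatives were a wider window, the promoter alone, taller peaks, equal list sizes, low second track, whole peaks, joined peaks, and 748T or 106A left out in turn. The overlap step was tested on simulated data. Python 3.11.15 and matplotlib 3.10.9 were used. Other TALE genes and cell type markers, and the identity of the lines by such markers, were not analysed here, because the gene table is for GRCm38.p6. Of the 2 members, 1 matched the promoter table.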

Additional observations from a re-analysis of the deposited data

How the results depend on the processing

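Of 75 recomputed values over 8 results, 56 moved by less than the spread between the NP23 pre-T lines (or, for shares, the 95% binomial interval), 16 moved by more and 3 changed sign. The binomial interval takes bases as trials, although neighbouring bases are not independent, so it is too narrow to measure a real spread. At Meis1 both NP23 pre-T lines had 0 bases of either mark, so any change in bases counted as moved. The pre-T difference at Meis1 (NP23 lines minus SCL-LMO1) was 0 bases under every alternative. That outcome was fixed in advance, since the pre-T lists hold no H3K4me3 peak in the window or in its 50-kb extension. These values say nothing about stability, though they are among the 56. Restricted to 10 kb around the start, the AML excess of H3K4me3 at Meis1 was 11935 bases and NP23 covered 77.1% of it. With the taller 50% of peaks NP23 covered 61.3%, and with peaks within 1 kb joined 96.0%. The 61.3% counts the 3917-bp NP23 peak, whose maximum of 13 reads equals its list median, so it rests on a tie. The share without that peak was not computed. The H3K27me3 peak of 961C at Meis1 was among neither the taller 50% of peaks nor lists of equal length, where the difference was 0 bases. At Pbx3, the AML line minus the NP23 pre-T lines in H3K4me3 bases was -1144 around the start and 0 with the taller 50%. That 0 rests on a tie: the 409-bp peak of 961C has a maximum equal to its list median and fell outside. With ties at the median kept, an alternative added once the data had been seen, the difference changed sign to 409, and the other results with the taller 50% had the same values, with a share of 0% at Pbx3. It changed sign to 403.5 with a second-track mean of at most 1 read, which removes the 106A peak, and to 108 with peaks joined, which fills the gap in 961C. The NP23 pre-T lines minus SCL-LMO1 were -782 around the start, -2383 with the taller 50%, -312.5 with a low second track and -3523 with peaks joined. The limit on the second track also removes both SCL-LMO1 promoter peaks, so -312.5 does not describe the promoter. Extending the Pbx3 window by 50 kb gave an H3K27me3 difference of 14.5 bases (AML minus NP23 pre-T). Without either NP23 pre-T line the Pbx3 differences were -605 to -427 against the AML line and -3427 to -3249 against SCL-LMO1. The NP23 share at Pbx3 had no value with the taller 50% when ties were not kept. No paired analysis was possible because no test was made and the labels carry no replicate numbers. The unknown depth limits every statement that a peak was not listed.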
